A study of Mus musculus with 6 samples.

Results

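The genes of the MHC class II presentation pathway were examined in RNA-seq libraries of mouse liver, to ask whether transcripts that mark antigen-presenting cells changed when the long noncoding RNA Hnf1aos1 was knocked down. The 8 genes were taken by symbol from the 40803 genes of the count table: the class II chains H2-Aa, H2-Ab1 and H2-Eb1, the H2-M subunits H2-DMa and H2-DMb1, the invariant chain Cd74, the protease Ctss and the transactivator Ciita. None of the 8 passed the edgeR test in either direction, and DESeq2 called 1 higher, Ctss. The chains, Cd74 and Ciita had lower fitted levels in the knockdown group, Ctss had a higher one, and H2-DMa and H2-DMb1 lay close to the control level.

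MHC class II molecules display peptides from internalized proteins to CD4+ T cells. An alpha and a beta chain assemble on the invariant chain, which guides them to endosomes, where proteases such as cathepsin S trim it and the H2-M complex exchanges the remaining fragment for a peptide. Ciita, which binds no DNA itself, is recruited to factors on class II promoters and sets how strongly they are transcribed. In the liver these genes are known from Kupffer cells, dendritic cells, B cells and sinusoidal endothelium, whereas resting hepatocytes carry little class II.

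All 6 libraries came from livers of male C57BL6 mice on a normal diet, 1 library per mouse and 3 mice per group. The mice were injected at an age of about 6 weeks with 100 µL of an adeno-associated virus of serotype 8 (rAAV8), and livers were taken 4 weeks later. The rAAV8-Scramble group received a vector with a scrambled short hairpin RNA and the rAAV8-Hnf1aos1 group a vector with a hairpin against Hnf1aos1. In both groups the U6 promoter, active in most cell types, drove the hairpin and the vector carried an EGFP reporter, so both groups had received virus, and no mouse without virus was analysed here. The libraries were of whole liver, in which fewer cells of a type and less RNA per cell cannot be told apart.

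Gene totals were 14704746 to 19462398 counts per library, of which the 8 genes took 2088 to 2919, or 0.0107% to 0.0199%. Of the 16327 genes that passed the filter on low counts, 505 were higher and 527 lower in the knockdown group at an adjusted p under 0.05 (edgeR). The targeted Hnf1aos1 had normalized counts of 512, 491 and 620.3 in the rAAV8-Scramble mice and 278, 258 and 433 in the rAAV8-Hnf1aos1 mice. These did not overlap, and the log2 fold change was −0.74 (SE 0.195) with an adjusted p of 0.0625 (edgeR). The hepatocyte marker Alb had a mean of 56792 TPM (a level corrected for gene length and library size), and the leukocyte marker Ptprc had 8.88.

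Of the class II genes, 5 lie in the MHC on chromosome 17, within 197134 bases (chr17:34119541-34316674, GRCm38). H2-Ab1 (chr17:34257689-34269419, plus strand), H2-Aa (chr17:34282744-34287823, minus strand) and H2-Eb1 (chr17:34305867-34316674, plus strand) are neighbours, and H2-DMa (chr17:34119541-34139101) and H2-DMb1 (chr17:34153072-34160230) lie to their left on the plus strand. Ctss is on chromosome 3 (chr3:95526786-95556403), Ciita on chromosome 16 (chr16:10480059-10528418), and Cd74 is also outside the MHC. Exons of H2-DMa overlap those of Brd2 and exons of Ciita those of Dexi, each on the other strand. The strand setting of the counting is not given in the sources used here, so reads in those overlaps are uncertain.

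Promoters of these genes are shown because class II genes are known for a shared promoter layout, in which RFX factors bind an X box and NF-Y binds a CCAAT-type Y box, the platform that recruits Ciita. The 160 bases before the start site are given 5′ to 3′ on the gene's own strand, from RefSeq on GRCm38.p6. Capitals mark ATTGG, the Y box core, or its reverse complement CCAAT, and GCAAC, a short RFX motif, or its reverse complement GTTGC. H2-Aa is chr17:34287824-34287983 (minus strand), H2-Eb1 chr17:34305707-34305866, H2-DMb1 chr17:34153031-34153190 and Ctss chr3:95526626-95526785 (all plus strand).
H2-Aa: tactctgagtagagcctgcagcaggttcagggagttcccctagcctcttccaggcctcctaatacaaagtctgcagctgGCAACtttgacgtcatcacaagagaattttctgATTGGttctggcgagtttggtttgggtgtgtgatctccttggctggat
H2-Eb1: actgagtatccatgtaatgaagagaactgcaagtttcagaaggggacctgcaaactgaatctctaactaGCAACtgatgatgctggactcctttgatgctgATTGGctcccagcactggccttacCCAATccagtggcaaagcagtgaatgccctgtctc
H2-DMb1: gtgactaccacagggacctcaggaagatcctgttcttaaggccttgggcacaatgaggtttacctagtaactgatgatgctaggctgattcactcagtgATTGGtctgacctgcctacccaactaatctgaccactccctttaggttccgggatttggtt
Ctss: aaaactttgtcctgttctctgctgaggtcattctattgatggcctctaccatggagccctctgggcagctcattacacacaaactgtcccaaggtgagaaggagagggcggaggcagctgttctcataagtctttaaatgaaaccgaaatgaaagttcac

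H2-Aa carried GCAAC at 81 to 77 bases before its start and ATTGG at 48 to 44, and H2-Eb1 carried GCAAC at 91 to 87 and ATTGG at 59 to 55, with CCAAT at 35 to 31 besides. In these chains the letters stood in the same order and orientation, 33 bases apart in H2-Aa and 32 in H2-Eb1, counted from first base to first base. H2-DMb1 carried ATTGG at 61 to 57 without GCAAC, and Ctss held neither in its 250 bases before the start. Only exact letters were searched, and variants were not counted. Before its ATTGG, H2-DMb1 holds ctagtaactgatgatgct, a near match to ctaGCAACtgatgatgct in H2-Eb1. On either strand, 33.8% of all 32851 promoters held ATTGG in 250 bases, 29.9% held GCAAC and 10.6% held both. Both in the same orientation, with ATTGG 25 to 40 bases after GCAAC, stood in 0.673% of them, a spacing range chosen after seeing these sequences. The 2 RefSeq entries of H2-DMa held GTTGC at 7 to 3 bases and ATTGG at 198 to 194 bases before their starts, respectively. The RefSeq starts of H2-DMb1 and of both H2-DMa entries lie inside the GENCODE gene spans given above. The bases searched before them thus lie partly (H2-DMb1) or wholly (H2-DMa) within those spans. For the H2-DMa entry with ATTGG, the bases after the start did not match a GENCODE transcript of the gene. H2-Ab1 and Ciita had no entry. A match of letters is a description of the sequence and not a measured binding site.

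On the length-corrected TPM scale Cd74 had the highest level, with a mean of 86.6 TPM over the 6 libraries (61.2 to 122.6). It was followed by H2-Aa at 51.5, Ctss at 30.4, H2-Ab1 at 25.9 and H2-Eb1 at 17.2 TPM. The peptide editor and the transactivator were far lower, with 3.65 TPM for H2-DMb1, 1.62 for H2-DMa and 1.54 for Ciita. The order of Cd74, H2-Aa, H2-Ab1 and H2-Eb1 held within 6 of 6 libraries. Ctss and H2-Ab1 were not separated in level, since Ctss was the higher of them in 3 of 3 rAAV8-Hnf1aos1 libraries but in 1 of 3 rAAV8-Scramble libraries. H2-DMa and Ciita were not separated either, with H2-DMa higher in 4 of 6 libraries. The low place of H2-DMa also rests on the gene length in the deposited TPM, which was 6.48 times that of H2-DMb1. C57BL6 mice are known to lack a working H2-Ea gene and so do not display the product of H2-Eb1. H2-Ea had 0 counts in 6 of 6 libraries, which allows up to 3 counts per library (counting error only), while H2-Eb1 was transcribed.

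Across the 8 genes, 0 were called higher and 0 lower by edgeR, where 3.09% of all tested genes were called higher and 3.23% lower. Unadjusted p-values under 0.05 in edgeR were found for 3 of the 8, beside 3822 of all 16327 tested genes. DESeq2 called 1 higher and 0 lower, beside 3.88% and 3.92% of all tested genes. The fitted log2 fold change was below 0 for 7 genes and above 0 for 1, with a median of −0.32 beside −0.0004 over all genes tested. The groups did not overlap for 1 of the 8, Ciita, which was lower in the knockdown group, and 13.7% of all tested genes showed that pattern. The plot of normalized counts per mouse shows each value.

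**Figure D1:**
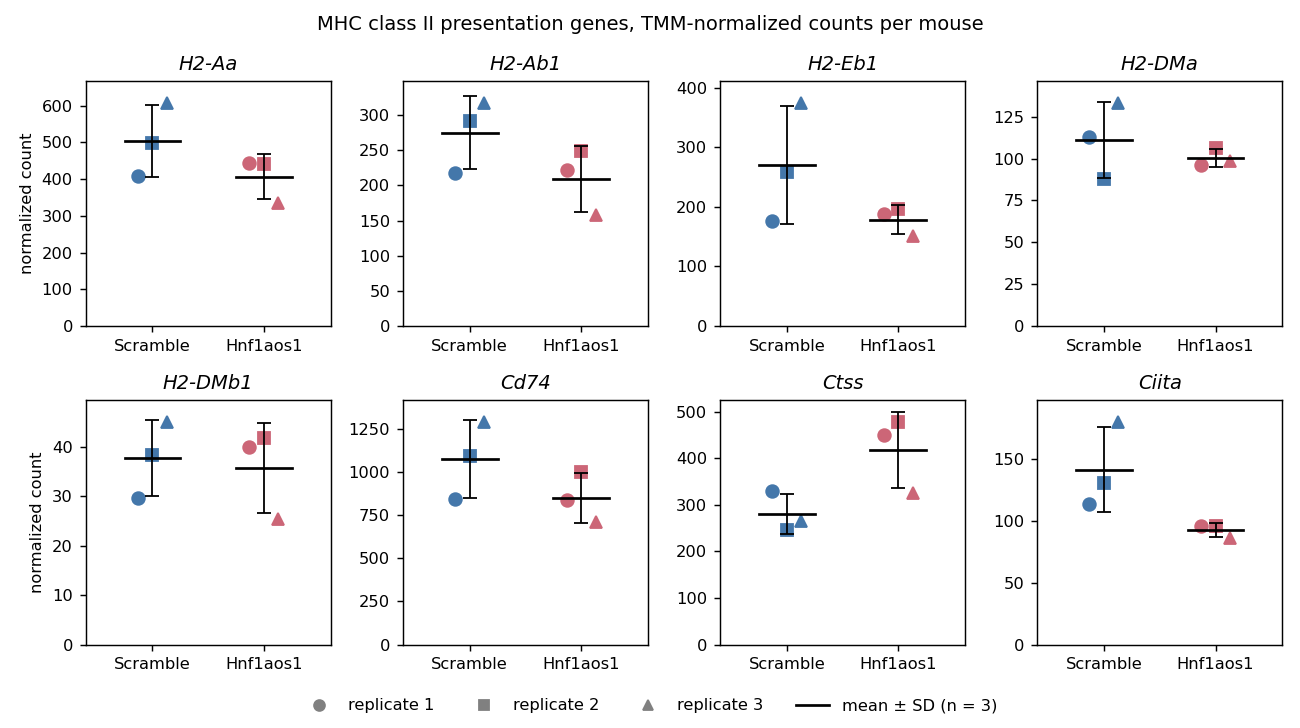
TMM-normalized counts of the 8 MHC class II presentation genes, 1 panel per gene, with the 3 rAAV8-Scramble mice in blue, the 3 rAAV8-Hnf1aos1 mice in red, marker shapes for the replicate number and black bars for the mean and SD. Replicate 3 of rAAV8-Scramble is the highest library in 7 of the 8 panels, and only the Ciita groups do not overlap.

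H2-Aa encodes the alpha chain of I-A, the class II molecule that C57BL6 mice display. Its normalized counts were 409, 497 and 606 in the rAAV8-Scramble mice and 443, 441 and 336 in the rAAV8-Hnf1aos1 mice. The groups overlapped, since the lowest control mouse lay below 2 of the knockdown mice. The means were 504 ± 98.5 and 407 ± 61.3 (SD, n = 3), the log2 fold change was −0.31 (SE 0.156, 95% interval −0.66 to 0.04), and the adjusted p was 0.263 (edgeR).

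H2-Ab1 encodes the beta chain that pairs with it. The control mice had 218, 291 and 317 normalized counts and the knockdown mice 221, 249 and 158. Again control replicate 1 lay among the knockdown values, and knockdown replicate 3 was the lowest of all. The log2 fold change was −0.39 (SE 0.187, 95% interval −0.81 to 0.02), with an adjusted p of 0.239 (edgeR).

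H2-Eb1, the beta chain of I-E, had the widest spread of the chains in the control mice and the narrowest in the knockdown mice. Its normalized counts were 176, 259 and 374 in the control mice, a coefficient of variation of 36.8%, and 189, 196 and 151 in the knockdown mice, one of 13.4%. Control replicate 1 lay below 2 of the knockdown mice, and the other control mice lay above all of them. The log2 fold change was −0.59 (SE 0.256), and the adjusted p was 0.214 (edgeR). Without control replicate 1 the log2 fold change was −0.82 and the gene passed the test with an adjusted p of 0.0370 (edgeR). Without control replicate 3 it was −0.29 with an adjusted p of 0.501 (edgeR), so the size of the difference rested on single control mice.

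Cd74, the invariant chain that chaperones class II chains, followed the same pattern at the highest level. Its normalized counts were 840.3, 1090.0 and 1289 in the control mice and 835, 997 and 711 in the knockdown mice. The groups overlapped through control replicate 1, and control replicate 3 was again the highest. The log2 fold change was −0.34 (SE 0.171, 95% interval −0.73 to 0.05), and the adjusted p was 0.272 (edgeR). The ratio of Cd74 to the sum of the 3 chains on the TPM scale stayed between 0.854 and 0.983 in the 6 libraries, with overlapping groups.

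Ciita, the transactivator that class II promoters depend on, had the lowest fitted fold change of the 8 genes. The control mice had 114, 131 and 180.4 normalized counts, and the knockdown mice had 96.3, 96.0 and 86.0. Every knockdown mouse lay below every control mouse. The means were 142 ± 34.6 and 92.8 ± 5.84 (SD, n = 3), which put the knockdown level at 65.6% of control. The log2 fold change was −0.61 (SE 0.188, 95% interval −1.02 to −0.20), with an adjusted p of 0.0784 by edgeR and 0.0798 by DESeq2. An exact two-sided permutation test gave p = 0.1, the smallest that 3 against 3 allows. Without control replicate 3, the highest mouse, the log2 fold change was −0.40 with an adjusted p of 0.314 (edgeR). Without the filter on low counts, which spread the test over 27496 genes, Ciita passed it (adjusted p = 0.0196, edgeR). Dexi, whose exons overlap Ciita on the other strand, had normalized counts of 120.04 to 132 in the control and 133 to 165 in the knockdown mice, a log2 fold change of 0.26 with an adjusted p of 0.304 (edgeR).

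Ctss encodes cathepsin S, which removes the invariant chain in antigen-presenting cells and is made by macrophages more widely. It was the 1 gene of the 8 with a fitted level above control. Its normalized counts were 329, 245 and 266 in the control mice and 450.1, 478 and 325 in the knockdown mice. The groups overlapped by a narrow margin, with knockdown replicate 3 just below control replicate 1. The means were 280.1 ± 44.0 and 418 ± 81.4 (SD, n = 3), a log2 fold change of 0.57 (SE 0.161, 95% interval 0.22 to 0.93).

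The call for Ctss depended on the method. The adjusted p was 0.0623 by edgeR and 0.0285 by DESeq2, and an exact two-sided permutation test gave p = 0.2. Ctss also passed the edgeR test without control replicate 1 (log2 fold change 0.71, adjusted p = 0.0492) and without knockdown replicate 3 (0.73, adjusted p = 0.00382). With any of the other 4 libraries left out, its log2 fold change was 0.47 to 0.53 with adjusted p-values of 0.166 to 0.247 (edgeR).

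H2-DMa and H2-DMb1 encode the subunits of H2-M, the peptide editor. H2-DMa had 113, 87.8 and 133 normalized counts in the control mice and 96.3, 106 and 98.7 in the knockdown mice. The knockdown values lay inside the control range, and the log2 fold change of −0.15 (SE 0.180, 95% interval −0.54 to 0.25) had an adjusted p of 0.668 (edgeR). H2-DMb1 had 29.8, 38.4 and 45.1 in the control mice and 40.1, 41.8 and 25.4 in the knockdown mice. These groups overlapped throughout, with a log2 fold change of −0.08 (SE 0.285, 95% interval −0.70 to 0.55) and an adjusted p of 0.898 (edgeR). H2-DMb1 had the fewest reads, 28 to 44 counts per library, so counting error alone came to 16.6% of its mean. Its near copy H2-DMb2 shared 179 of the 1579 stretches of 100 bases in H2-DMb1 exons, so its unique reads may understate it there. Brd2, overlapping H2-DMa on the other strand, had a log2 fold change of −0.17 with an adjusted p of 0.410 (edgeR).

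The intervals bound what these libraries can show. For H2-Aa, H2-Ab1 and Cd74 the 95% intervals reached from a log2 fold change of −0.66, −0.81 and −0.73 up to 0.04, 0.02 and 0.05. The upper bounds lay near 0, while a decrease of the size seen in the fit was not separated from the spread between mice. The plot of fold changes sets these intervals beside the values with 1 library left out.

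**Figure D2:**
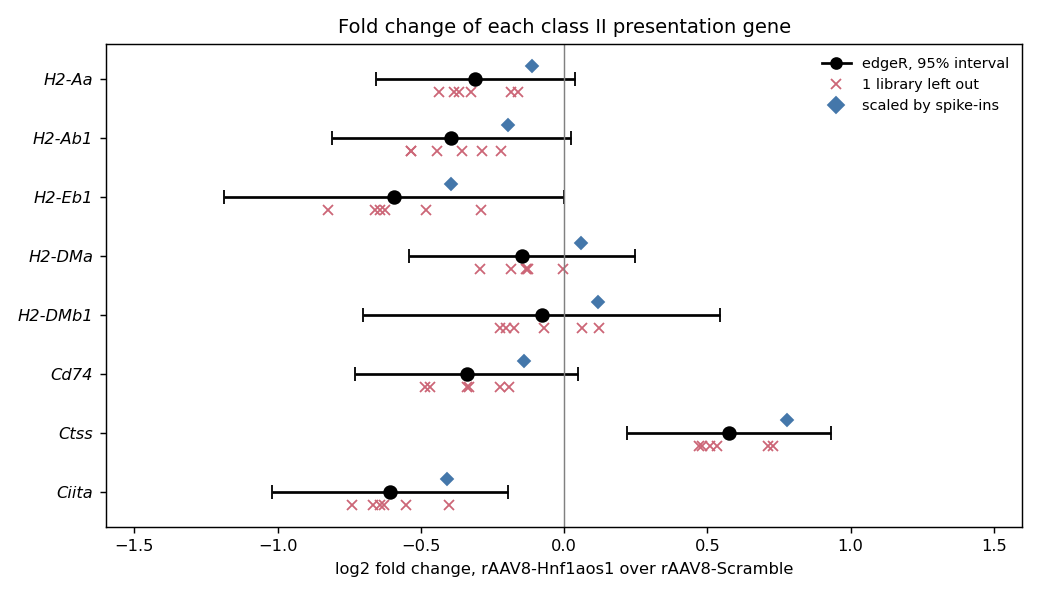
Log2 fold change of each gene (horizontal axis, rAAV8-Hnf1aos1 over rAAV8-Scramble) with its 95% interval from edgeR in black, the values with 1 of the 6 libraries left out as red crosses, and the value with library sizes from the spike-ins as a blue diamond. The intervals of Ctss and Ciita lie clear of 0, that of H2-Eb1 ends at 0, and each spike-in value lies to the right of its black point, above 0 for H2-DMa, H2-DMb1 and Ctss.

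Mice of the same group also differed from each other in these genes. Relative to the mean of the control mice, the median log2 deviation of the 8 genes was −0.30, 0.00 and 0.28 in control replicates 1, 2 and 3. In the knockdown mice it was −0.24, −0.11 and −0.57. Control replicate 3 was the highest library for 7 of the 8 genes, Ctss being the exception, and knockdown replicate 3 was the lowest for 6. Without control replicate 3 the median log2 fold change of the 8 genes was −0.18, and without control replicate 1 it was −0.46.

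The summed TPM of the 3 chains and Cd74 showed the same spread. It was 160.5, 205 and 261 in the control mice and 165, 172 and 125 in the knockdown mice. Control replicate 1 lay within the knockdown range, and the other control mice lay above it. An exact two-sided permutation test on the sum gave p = 0.3.

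Genes whose pattern over the 6 libraries was most like the mean of H2-Aa, H2-Ab1, H2-Eb1 and Cd74 were taken from 12905 candidates by the root mean square difference of centred log2 values. The nearest were Oxld1 (0.0611), Shroom4 (0.0652), Gm44026 (0.0740), Gm52775 (0.0772) and Cacna2d1 (0.0790), beside a median of 0.369 over the candidates. None of the 5 passed the edgeR test.

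The factors that sit on class II promoters were mostly near the control level. Of 7 tested, edgeR and DESeq2 each called 1 higher and 0 lower. Of all tested genes, 3.09% and 3.23% were called in edgeR and 3.88% and 3.92% in DESeq2. Rfxank, a subunit of the RFX complex, had 256 to 292 normalized counts in the control mice and 341 to 464 in the knockdown mice. The groups did not overlap, and the log2 fold change was 0.52 (SE 0.128) with an adjusted p of 0.0388 (edgeR). The NF-Y subunits Nfya, Nfyb and Nfyc had log2 fold changes of 0.01, 0.19 and −0.22, and the activator Creb1 had −0.21, with none past either test. Without overlap, 1 of the 7 was higher in the knockdown mice, Rfxank, and 1 lower, Creb1, beside 15.2% and 13.7% of all tested genes.

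Interferon gamma is the main known inducer of Ciita, and its receptor signals through the kinases Jak1 and Jak2. All 6 reported genes of this route that were tested had fitted fold changes above 0. By edgeR 1 was called higher and 0 lower, beside 3.09% and 3.23% of all tested genes. By DESeq2 2 were called higher, beside 3.88%. The receptor subunit Ifngr2 had 231, 285 and 236 normalized counts in the control mice and 521, 521 and 333 in the knockdown mice. Its groups did not overlap, and the log2 fold change was 0.87 (SE 0.175) with an adjusted p of 0.0233 (edgeR). Irf1, a transcription factor that acts on the Ciita gene, had overlapping groups and a log2 fold change of 0.08 with an adjusted p of 0.762 (edgeR). Jak1 had a log2 fold change of 0.36 without overlap, an adjusted p of 0.0640 by edgeR and one of 0.0458 by DESeq2. Ifngr1 and Jak2 had 0.17 and 0.03 and passed neither test. In 2 of the 6, Ifngr2 and Jak1, the knockdown mice were higher without overlap, beside 15.2% of all tested genes. Ifng itself, named outside the rule, had too few reads to be tested. The fitted fold changes of Ifngr2 and Ciita thus lay on opposite sides of 0.

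The remaining pathway genes were not called by edgeR, while DESeq2 called 2 of them, both in endosomal processing. Of the 5 other class II genes that were counted, 2 had enough reads to be tested, and neither was called by edgeR or DESeq2, H2-DMb2 having a log2 fold change of −0.59 (adjusted p = 0.435, edgeR) and the H2-O subunit H2-Ob one of 0.06. Among 7 tested genes of endosomal processing, edgeR called 0, with 3 at an unadjusted p under 0.05, beside 3822 of all 16327 tested genes. DESeq2 called 2 higher and 0 lower, beside 3.88% and 3.92% of all tested genes. In 4 of the 7 the knockdown mice were higher without overlap and in 1 lower, beside 15.2% and 13.7% of all tested genes. The endosomal protease Ctsl, which trims the invariant chain in thymic epithelium, had a log2 fold change of 0.68 without overlap and an adjusted p of 0.0618 by edgeR and 0.00163 by DESeq2. The other gene that DESeq2 called, Sppl2a, an intramembrane protease that degrades the last invariant chain fragment, was named after its values were seen and had a log2 fold change of 0.37 with adjusted p-values of 0.0509 (edgeR) and 0.0205 (DESeq2). The proteases Ctsb and Ctsd had −0.01 and 0.18, and the cathepsin inhibitor Cst3 had −0.21 and was the 1 that was lower without overlap.

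The ligases Marchf1 and Marchf8, which remove class II from the surface, and Cd83, which opposes Marchf1, had log2 fold changes of 0.11, −0.29 and 0.03, and none was called by edgeR or DESeq2. Marchf8 was lower in the knockdown mice without overlap. The costimulatory genes Cd40, Cd80, Cd86 and Icosl had 0.21, −0.24, −0.03 and −0.03, with 0 of 4 called by either. Over the 29 tested pathway genes reported outside the 8, 19 lay above 0, and edgeR called 2 higher and 0 lower, beside 3.09% and 3.23% of all tested genes. The knockdown mice were higher without overlap in 7 and lower in 3, beside 15.2% and 13.7% of all tested genes. The median log2 fold change was 0.06, and DESeq2 called 5 higher, beside 3.88% of all tested genes. With 1 library left out the edgeR count was 1 without control replicate 2, 0 without control replicate 1, control replicate 3, knockdown replicate 1 or knockdown replicate 2, and 6 without knockdown replicate 3.

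**Figure D3:**
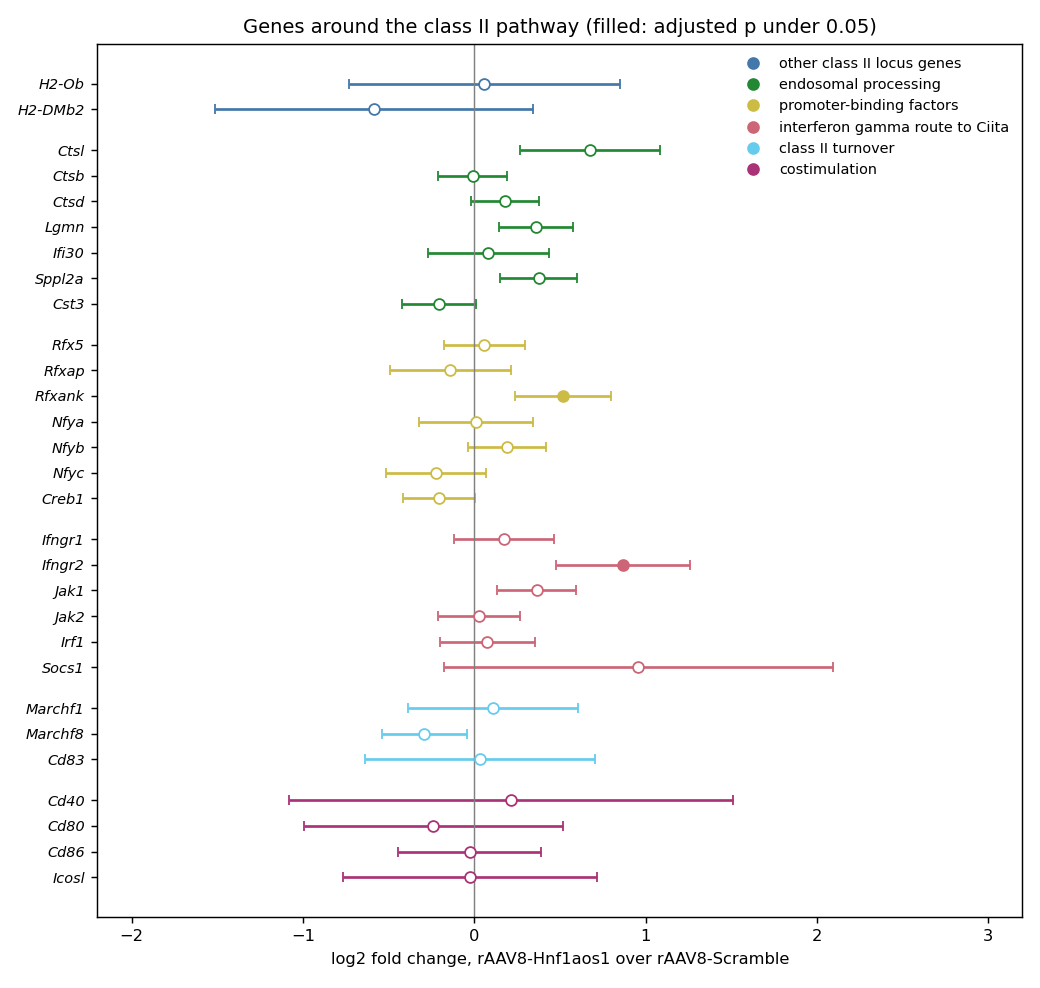
Log2 fold change (horizontal axis, rAAV8-Hnf1aos1 over rAAV8-Scramble) with its 95% interval from edgeR for 29 tested genes around the class II pathway, coloured by role and filled where the adjusted p was under 0.05. Rfxank and Ifngr2 are the 2 filled points, both to the right of 0.

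Markers of the cells that carry class II were measured in the same libraries. Of 36 tested markers of leukocytes, dendritic cells, B cells, Kupffer cells, macrophages and monocytes, 6 rose and 0 fell (edgeR), beside 3.09% and 3.23% of all tested genes, with 27 above 0 and a median log2 fold change of 0.32. DESeq2 called 8 higher, beside 3.88% of all tested genes. The 6 called by edgeR were the Kupffer cell markers Adgre1 (log2 fold change 0.41) and Clec4f (0.44), the complement genes C1qa (0.55) and C1qb (0.46), and the monocyte and macrophage genes Lyz2 (0.46) and Plac8 (0.85). DESeq2 did not call Adgre1 (adjusted p = 0.0748) and called Cd5l (0.78), Marco (1.41) and Mpeg1 (1.48), which edgeR did not call. The edgeR count fell to 0 without control replicate 2, control replicate 3 or knockdown replicate 2 and to 1 without knockdown replicate 1, and it was 11 without knockdown replicate 3.

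The summed TPM of the Kupffer cell markers was higher in every knockdown mouse than in every control mouse, with 109 to 135 in the control and 138 to 183 in the knockdown mice. On normalized counts 6 of 6 markers did not overlap between groups, where 15.2% of all tested genes were higher without overlap. The margin was narrow for Vsig4 (390.9 in control replicate 1, 393.1 in knockdown replicate 3) and Timd4 (118.8 in control replicate 3, 119.6 in knockdown replicate 3). On the TPM scale both of these markers overlapped. The macrophage sum was 170.4 to 197 against 209 to 343 TPM, and the monocyte sum 75.2 to 89.5 against 99.9 to 116, both sums without overlap. Exact two-sided permutation tests on each of these 3 sums gave p = 0.1, the smallest possible. The macrophage sum had means of 186 and 285 TPM, of which Mpeg1 took 33.0 and 87.9, with 43.8 to 131 in the knockdown mice. In 5 of 6 macrophage markers the knockdown mice were higher without overlap on normalized counts. The other, Csf1r, had a log2 fold change of 0.18 (adjusted p = 0.330, edgeR). On the TPM scale Cd68 overlapped as well (15.4 in control replicate 1, 15.2 in knockdown replicate 3). So did C1qc (35.5 in control replicate 3, 34.6 in knockdown replicate 3). Most of the monocyte sum was Lyz2, which macrophages also express, with 70.4 to 84.7 TPM in the control and 94.1 to 104.02 in the knockdown mice. The monocyte markers Ccr2, Ly6c2 and Itgam had overlapping groups and log2 fold changes of −0.07, 0.69 and 0.56, none called. Chil3 had 0 counts in the control mice and 4, 14 and 0 in the knockdown mice, too few to be tested.

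Dendritic cell and B cell markers, which belong to the cells with the highest class II per cell, were low. The dendritic sum was 9.80 to 13.3 TPM in the control and 10.3 to 10.8 in the knockdown mice, with 0 of 7 tested markers called, and Clec9a had a log2 fold change of −0.02. The B cell sum was 6.78 to 7.97 against 6.61 to 7.87 TPM, with 0 of 7 called. The pan-leukocyte sum was 82.5 to 89.0 against 74.7 to 88.9 TPM, with 0 of 5 called. Its means were 86.2 and 81.9 TPM, of which Lcp1 (log2 fold change −0.12) took 56.2 and 49.1. Of the 5 fold changes, 3 lay above 0 and 2 below, with a median of 0.20. None of these lists separated the groups, and DESeq2 called 0 of their genes. In edgeR 0 had an unadjusted p under 0.05, beside 3822 of all 16327 tested genes.

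The other cells that a piece of liver holds were measured likewise. The sinusoidal endothelial sum was 131 to 138 TPM in the control and 111 to 133 in the knockdown mice, with 0 of 7 called, and the stellate cell sum was 141 to 175 against 115 to 151, with 0 of 5 called. Markers of T and NK cells summed to 4.78 to 9.16 against 6.06 to 8.94 TPM and those of cholangiocytes to 11.04 to 14.9 against 10.1 to 15.8, with 0 called in either. Of 6 hepatocyte markers, 6 had fitted fold changes above 0, with a median of 0.27. In 4 of them the knockdown mice were higher without overlap, beside 15.2% of all tested genes. By edgeR 1 was called higher, the fibrinogen gene Fgb (log2 fold change 1.11, adjusted p = 0.00682, edgeR), beside 3.09% of all tested genes. By DESeq2 2 were called higher, beside 3.88%. The part of these cell types in the class II levels was not tested.

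The ratio of class II transcripts to Kupffer cell markers separated the groups. The Kupffer cell and macrophage sums separated them alone, while the class II sum did not. The summed TPM of the 3 chains and Cd74 was 1.19, 1.89 and 2.30 times that of the Kupffer cell markers in the control mice and 0.918, 0.937 and 0.903 times in the knockdown mice. Every knockdown mouse lay below every control mouse, and the knockdown ratios were within a narrow range. Against the macrophage markers, Mpeg1 included, the ratio was 0.813, 1.21 and 1.36 in the control and 0.480, 0.569 and 0.595 in the knockdown mice, also without overlap. Against the pan-leukocyte markers, whose sum was mostly Lcp1, it was 1.95, 2.35 and 2.93 against 2.00, 1.93 and 1.67. There control replicate 1 lay among the knockdown values. The TPM of Ctss divided by the class II sum was 0.182, 0.105 and 0.0947 in the control and 0.242, 0.232 and 0.219 in the knockdown mice, without overlap. These ratios were chosen after the values were seen and are given as descriptions with no test.

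**Figure D4:**
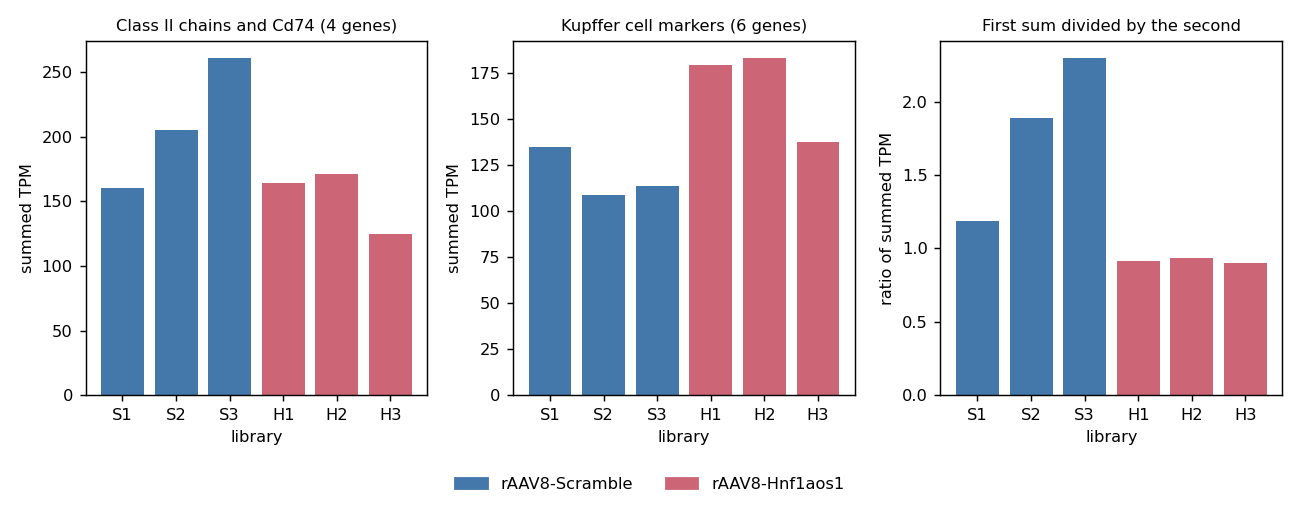
Summed TPM of H2-Aa, H2-Ab1, H2-Eb1 and Cd74 (left), summed TPM of 6 Kupffer cell markers (middle) and the first sum divided by the second (right), with 1 bar per library, rAAV8-Scramble in blue (S1 to S3) and rAAV8-Hnf1aos1 in red (H1 to H3). The class II sums overlap between the groups, the Kupffer cell sums are higher in the 3 rAAV8-Hnf1aos1 libraries, and the ratio is above 1 in the 3 rAAV8-Scramble libraries and below 1 in the others.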

How the data were processed

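RNA-seq was from 6 livers, 3 rAAV8-Scramble and 3 rAAV8-Hnf1aos1, grouped by the sample titles. Per the study's methods, the authors trimmed reads with Trimmomatic, aligned them with STAR and used featureCounts on reads that mapped uniquely to exons, giving the deposited raw counts. The methods name GRCm38 and poly(A) selection with a stranded kit, whereas the labels name GRCm39 and rRNA depletion. The deposited TPM values cover the same rows, spike-ins included, and how the authors computed them is not given in the sources used here. The authors' normalized counts are a signal made by dividing the raw counts by 1 size factor per library. A further deposited table holds the authors' log2 fold changes and p-values and was not used.

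Tests ran on raw counts in R 4.3.3. The 92 ERCC spike-in rows, 1.18% to 1.52% of all counts, were left out. With edgeR 4.0.16, genes were filtered by filterByExpr, scaled by TMM and tested by robust quasi-likelihood fits with a term for the group alone and p-values adjusted by Benjamini-Hochberg over 16327 genes, with a limit of 0.05. Normalized counts in the text are TMM-scaled counts. Single values were tested by exact two-sided permutation on log2 values. There p is the share of all relabelings of the mice with a mean difference at least as large, and 0.1 is the smallest possible. The edgeR and DESeq2 p-values set the difference against the spread between 3 mice per group. The pseudocount was 0.5 on normalized counts and a smaller one on TPM sums. Fold changes taken from the deposited TPM used a pseudocount of 0.1. Group overlap was judged on normalized counts. Alternatives were DESeq2 1.42.0, its size factors, library totals, spike-in sizes, no filter, a minimum mean of 50 counts, limma 3.58.1 (voom), a replicate block and leaving out each library. The procedure was tested on simulated data. Pairs of libraries of 1 group differed far beyond sampling noise (chi-square of 7.68 to 31.6 per gene).

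Named genes were the 8 members, the called genes of each list with at most 4 more by mean TPM, and the 5 nearest patterns among genes with an average log2 CPM of at least 1. The members and lists were chosen with earlier results of these data known. 1 gene of the pathway lists is not reported here and is left out of their counts. The listed name H2-Ea-ps was not counted apart from H2-Ea, and transferrin was looked up as Trf. Gene positions are from GENCODE on GRCm38, promoters from RefSeq. Figures were drawn with matplotlib 3.10.9.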

Additional observations from a re-analysis of the deposited data

How the results depend on the processing

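Of 111 tested alternatives for single genes, 100 kept the direction and the side of the threshold, 7 came to pass the test and 4 reversed. In a further 16, computed without a test from the deposited TPM and normalized counts, the value moved by less than the spread between mice. The reversals were H2-DMa with library sizes from the spike-ins (log2 fold change 0.0587), H2-DMb1 with the same sizes (0.120), and H2-DMb1 with 1 library left out, where its value ran from −0.223 to 0.122. Spike-in sizes moved the median of all genes to 0.20 and that of the 8 class II genes to −0.13, with 5 of 8 below 0, so the difference from the median of all genes stayed near that of TMM. Ctss passed with spike-in sizes (0.78, adjusted p = 0.00640) and without the filter (0.57, adjusted p = 0.000884), in edgeR. The number of class II genes called higher was 1 with DESeq2, with spike-in sizes and without the filter, and 0 to 1 with 1 library left out. The number called lower was 1 without the filter and 0 to 1 with 1 library left out. Pathway genes called higher were 2 in the edgeR fit, 5 with DESeq2, 8 with spike-in sizes, 6 without the filter, 1 with library totals, with a minimum mean of 50 counts and with limma voom, and 0 to 6 with 1 library left out. Antigen-presenting cell markers called higher were 6 in the edgeR fit, 2 with library totals, 15 with spike-in sizes, 11 without the filter, 3 with limma voom and 0 to 11 with 1 library left out. The cause of these shifts was not tested.

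Libraries with the same replicate number did not deviate together (correlations of −0.0310, 0.0161 and 0.0106), so the numbers were not taken to pair mice. With a replicate block in edgeR, 0 class II genes were called in either direction, 2 pathway genes and 5 markers were called higher and 0 lower, and 878 of all genes were called beside 1032. Over all genes, 103 to 1881 were called with 1 library left out, 103 without control replicate 3 and 1881 without knockdown replicate 3. Counting error was 16.6% of the mean for H2-DMb1, with 28 to 44 counts per library, beside coefficients of variation between mice of 20.4% and 25.3%. It was 9.74% for H2-DMa and 9.32% for Ciita, and 3.25% to 6.74% for the other 5 genes.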
